A study of Mus musculus with 8 samples.

Results

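The urea cycle and ammonia handling enzymes were examined in mouse liver after ischemia-reperfusion (I/R) by RNA sequencing. They are 10 genes of the 54532 listed in the deposited table: Nags, Cps1, Otc, Ass1, Asl and Arg1 of the urea cycle, the second arginase Arg2, and Gls2, Glud1 and Glul, which release or fix ammonia. They were chosen by name, with earlier results of these data known. All 10 were found and were expressed highly enough to be tested. The comparison was between METTL3-HKD (4 mice) and METTL3-Flox livers (4 mice), all exposed to 1 h of ischemia before reperfusion for 6 h, so no liver without I/R enters the comparison. The METTL3-HKD mice were heterozygous: they carried a METTL3 flox/- genotype together with Alb-iCre, in which the albumin promoter drives the recombinase in hepatocytes, and the METTL3-Flox controls were METTL3 flox/flox. METTL3 is the catalytic subunit of the enzyme complex that writes N6-methyladenosine (m6A) on RNA, and the other cells of the liver were not targeted. Each library came from a separately numbered mouse.

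The urea cycle turns toxic ammonia into urea and runs as a whole almost only in hepatocytes, mainly those near the portal vein. Its first steps take place in the mitochondrion, where NAGS makes the activator of CPS1, CPS1 joins ammonia and bicarbonate, and OTC passes the product to ornithine. In the cytosol ASS1 and ASL build arginine, and ARG1 splits it into urea and ornithine. Arginase 2 carries out the same last reaction inside mitochondria and is expressed mostly outside the hepatocyte. Periportal liver glutaminase (GLS2) and glutamate dehydrogenase (GLUD1) feed ammonia into the cycle, whereas glutamine synthetase (GLUL), confined in healthy liver to hepatocytes around the central vein, removes what the cycle leaves.

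Between 15861245 and 18434488 reads per library lay on genes. Values are FPKM as deposited, fragments per kilobase of gene and per unit of library size. The library sizes they imply differ from the reads on genes. They were 20114825 against 17237993 in HKD1 (METTL3-HKD mouse 1) and 14210943 against 16914680 in Flox1 (METTL3-Flox mouse 1). A scaling between libraries was inferred from this and is not described in the sources used here. Of the genes, 16645 averaged 0.1 FPKM or more and were tested with limma on log2(FPKM + 0.1), with Benjamini-Hochberg adjustment over all of them. Fold changes are METTL3-HKD against METTL3-Flox on that scale. Mettl3 itself had 1.33 ± 0.181 FPKM in METTL3-HKD livers and 1.5 ± 0.282 in METTL3-Flox livers (SD, n = 4 each, limma adjusted p = 0.556). Its log2 fold change was -0.16 with a 95% interval from -0.53 to 0.22, or a fold of 0.693 to 1.16. The paper states that METTL3 ablation in liver tissue was checked separately. This whole-gene value was not used to check the genotype. The floxed part is a single exon, the tissue holds untargeted cells, and 18.4% of the gene's exon length overlaps Tox4 on the other strand. What these points contribute was not tested.

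Sequences are shown before the values. First comes the coding part of the first coding exon of each arginase gene, because Arg2 was the only member past the test and reads must tell it from Arg1. Both are written 5′ to 3′ on the coding strand in GRCm38, with the start codon in capitals. That of Arg1 lies at chr10:24927312-24927368 on the minus strand (57 bases) and that of Arg2 at chr12:79130870-79130980 on the plus strand (111 bases).
Arg1: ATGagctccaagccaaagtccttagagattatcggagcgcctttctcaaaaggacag
Arg2: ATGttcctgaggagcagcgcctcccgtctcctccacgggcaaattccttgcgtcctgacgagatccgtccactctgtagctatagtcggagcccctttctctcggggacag
The stretch of Arg2 is longer by an N-terminal part that directs arginase 2 to the mitochondrion. Over 958 aligned coding bases the arginase genes were identical at 622, or 64.9%. Arg1 has 8 exons within chr10:24915221-24927484 and codes for 323 amino acids, and Arg2 has 8 exons within chr12:79130777-79156301 and codes for 354.

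Next are the promoters of Otc and of Ass1, members whose levels were low in the same METTL3-HKD livers. RefSeq promoter windows in GRCm38.p6, from 250 bases before to 50 bases after the gene start, were matched for 5 of the 10 members (Ass1, Glud1, Glul, Nags and Otc). Capitals mark GC boxes, CCAAT boxes, TATA boxes and C/EBP cores, searched on both strands. C/EBP factors are known regulators of urea cycle genes.
Otc, chrX:10252055-10252354, plus strand: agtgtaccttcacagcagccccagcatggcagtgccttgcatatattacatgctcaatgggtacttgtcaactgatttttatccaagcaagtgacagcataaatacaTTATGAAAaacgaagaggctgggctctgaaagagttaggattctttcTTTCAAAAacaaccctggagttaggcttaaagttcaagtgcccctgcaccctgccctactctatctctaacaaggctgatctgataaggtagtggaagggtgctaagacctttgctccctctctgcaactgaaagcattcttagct
Ass1, chr2:31470020-31470319, plus strand: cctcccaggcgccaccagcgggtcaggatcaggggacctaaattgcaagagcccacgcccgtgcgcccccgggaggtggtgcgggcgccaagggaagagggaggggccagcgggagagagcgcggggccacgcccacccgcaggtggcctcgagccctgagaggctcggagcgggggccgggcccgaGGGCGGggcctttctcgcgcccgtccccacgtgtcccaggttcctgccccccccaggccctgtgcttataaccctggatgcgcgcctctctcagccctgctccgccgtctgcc
The Otc window was 44.3% GC and held 2 C/EBP cores, which start 143 and 96 bases before the gene start, and none of the other marked motifs. The Ass1 window was 74.0% GC and held 1 GC box, 63 bases before the start. Among 32851 promoters of the same length, 40.7% held a C/EBP core, spelled TTNCNNAA. The GC box, GGGCGG, was in 35.7% of them. A CCAAT box was in 37.4%, and a TATA box, spelled TATAAA, in 13.6%. Of the 5 member promoters, 2 held a C/EBP core, 4 a GC box, 1 a CCAAT box and 0 a TATA box. None of these motifs overlapped another kind in the windows shown. These matches describe letters and not binding.

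Arg2 rose in METTL3-HKD livers, and no other member passed the test. Arg2 stood at 4.53, 1.86, 1.40 and 2.83 FPKM in METTL3-HKD livers 1 to 4 (HKD1 to HKD4). In METTL3-Flox livers 1 to 4 (Flox1 to Flox4) it stood at 0.443, 0.130, 0.0921 and 0.218 FPKM. Every METTL3-HKD liver was above every METTL3-Flox liver, and HKD1 was the highest. The means were 2.65 ± 1.38 and 0.221 ± 0.157 FPKM (SD, n = 4 each), a ratio of 12.0. The log2 fold change was 3.09 ± 0.415 (SE), with a 95% interval from 2.15 to 4.02 and a limma adjusted p of 0.00421. The exact two-sided permutation test over the 70 arrangements of 4 against 4 livers gave p = 0.0286, the smallest value that this design allows.

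The level of Arg2 was low in both groups, and few reads lie behind it. In METTL3-HKD livers 130, 49, 36 and 75 reads fell on the gene, and in METTL3-Flox livers 9, 3, 2 and 5. The pooled read ratio was 12.5, with a 95% interval from 7.87 to 21.1 that covers counting error only. The size of the change is therefore less certain than its direction: with a pseudocount of 1 FPKM the log2 fold change was 1.51. Of the exon length of Arg2, 20% overlaps Vti1b on the opposite strand, and the strand setting of the counting is not given in the sources used here. Vti1b, which codes for a vesicle fusion protein, had 31.1 ± 2.21 FPKM in METTL3-HKD livers and 30.4 ± 2.96 in METTL3-Flox livers (n = 4 each, log2 fold change 0.03, limma adjusted p = 0.836). The level of Arg2 in METTL3-Flox livers may hold reads of Vti1b, which was not tested.

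Of the 10 members, 1 was higher and 0 were lower at an adjusted p under 0.05 by limma. Over all genes tested, 9.05% were higher and 6.63% lower by that rule. When a log2 fold change of 1 or more in size was also required, the counts of members stayed at 1 higher and 0 lower, against 4.7% and 1.52% of all genes. Before adjustment, Arg2, Nags and Otc passed 0.05. All livers of one group lay above all of the other for 2 of the 10 members, Arg2 and Nags, against 22.6% of all genes. The share of called members is thus near the share of called genes in general.

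**Figure D1:**
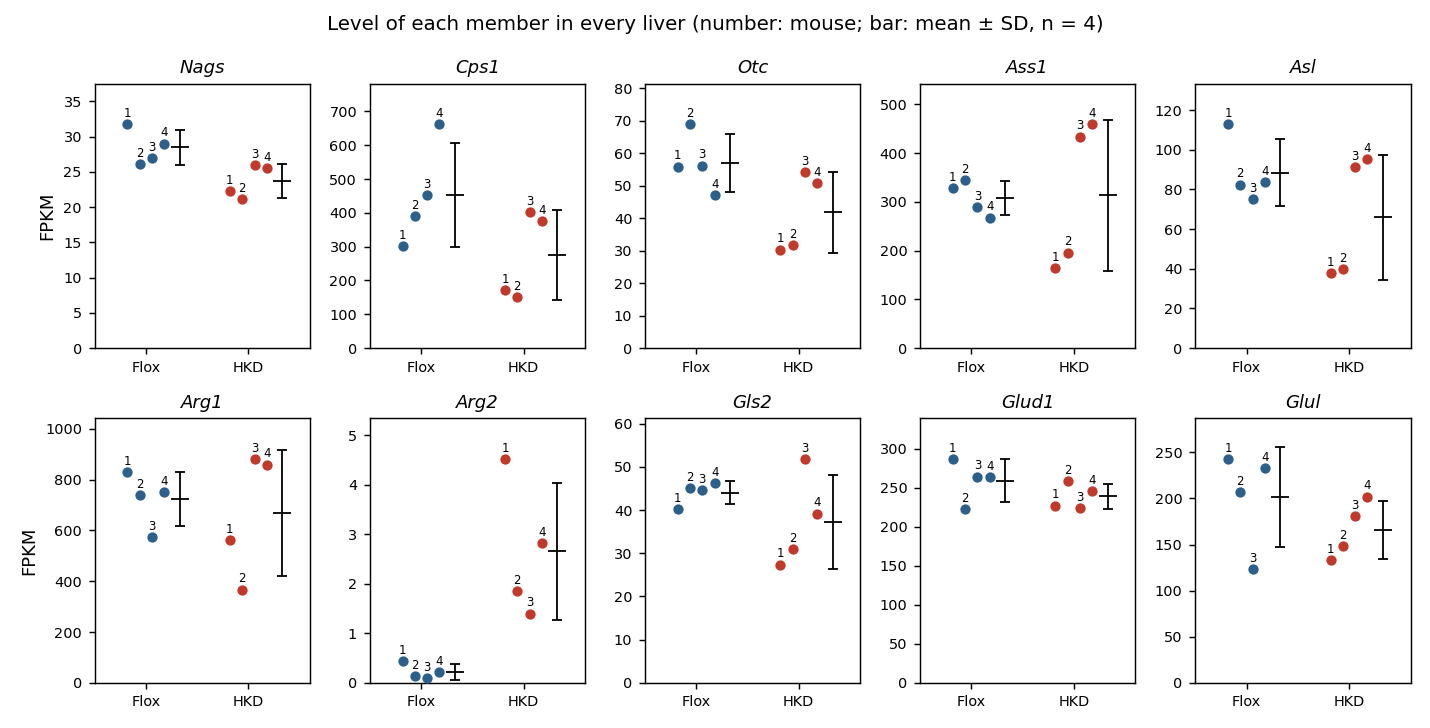
FPKM (y axis, each starting at 0) of the 10 members in the 4 METTL3-Flox livers (blue) and the 4 METTL3-HKD livers (red). Points are livers with their mouse number, and bars are the mean ± SD. Arg2 is higher in every METTL3-HKD liver, and in 7 panels the red points 1 and 2 lie below all others.

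Of the mitochondrial steps of the cycle, Nags showed the narrowest spread. NAGS makes N-acetylglutamate, without which CPS1 is inactive. Nags stood at 22.3, 21.1, 26.0 and 25.5 FPKM in HKD1 to HKD4 and at 31.8, 26.1, 27.0 and 29.0 FPKM in Flox1 to Flox4. All METTL3-HKD livers were below all METTL3-Flox livers, by a narrow margin between HKD3 and Flox2. The log2 fold change was -0.26 ± 0.103 (SE; 95% interval -0.49 to -0.03) with a limma adjusted p of 0.115 and an exact permutation p of 0.0286, and it was 0.01 when the values were rescaled to TPM, a scaling under which the median of all genes stood at 0.24.

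Cps1, the rate-limiting enzyme of the cycle and among the most abundant proteins of liver mitochondria, had the largest negative fold change of the members. Its FPKM were 172, 152, 403 and 376 in HKD1 to HKD4 and 301, 391, 452 and 663 in Flox1 to Flox4. HKD1 and HKD2 were the lowest of the 8 livers, while HKD3 and HKD4 lay inside the range of the METTL3-Flox livers. The log2 fold change was -0.79 ± 0.369 (SE) with a 95% interval from -1.62 to 0.04 (limma adjusted p = 0.177, exact permutation p = 0.1714).

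Otc, which is X-linked and makes citrulline, had the same lowest pair of livers. Its FPKM were 30.3, 31.8, 54.1 and 50.9 in HKD1 to HKD4 and 55.9, 69.0, 56.2 and 47.1 in Flox1 to Flox4. HKD1 and HKD2 were again the lowest, and HKD3 and HKD4 were above Flox4. Its fold change of -0.49 ± 0.212 (SE; 95% interval -0.97 to -0.01) did not pass after adjustment (limma adjusted p = 0.153, exact permutation p = 0.1429).

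In the cytosolic steps the METTL3-HKD livers again differed among themselves. Ass1, which joins citrulline to aspartate, stood at 164, 196, 434 and 460 FPKM in HKD1 to HKD4 and at 328, 345, 289 and 268 FPKM in Flox1 to Flox4. HKD1 and HKD2 were below every METTL3-Flox liver, and HKD3 and HKD4 were above every one. The group means were close, at 314 ± 155 and 307 ± 35 FPKM (SD, n = 4 each), with a log2 fold change of -0.11 ± 0.332 (SE; limma adjusted p = 0.852) that turned positive under 3 other scalings or weightings of the data and under a scaling to hepatocyte markers.

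Asl, which releases arginine and fumarate, stood at 37.7, 39.8, 91.3 and 95.2 FPKM in HKD1 to HKD4 and at 113, 82.4, 75.0 and 83.6 FPKM in Flox1 to Flox4. HKD3 and HKD4 were within the range of the METTL3-Flox livers, and HKD1 and HKD2 were below it. Between the groups the log2 fold change was -0.54 ± 0.324 (SE; 95% interval -1.27 to 0.19, limma adjusted p = 0.285).

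Arg1, the cytosolic arginase and the most highly expressed member in both groups, stood at 562, 367, 882 and 859 FPKM in HKD1 to HKD4 and at 830, 739, 575 and 750 FPKM in Flox1 to Flox4. HKD3 and HKD4 were the highest and HKD2 the lowest of the 8 livers, and HKD1 was just below Flox3. For Arg1 the log2 fold change was -0.19 ± 0.281 (SE; 95% interval -0.83 to 0.44, limma adjusted p = 0.680), and its sign turned when the data were scaled to the reads on genes (0.03) or to TPM (0.08).

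**Figure D2:**
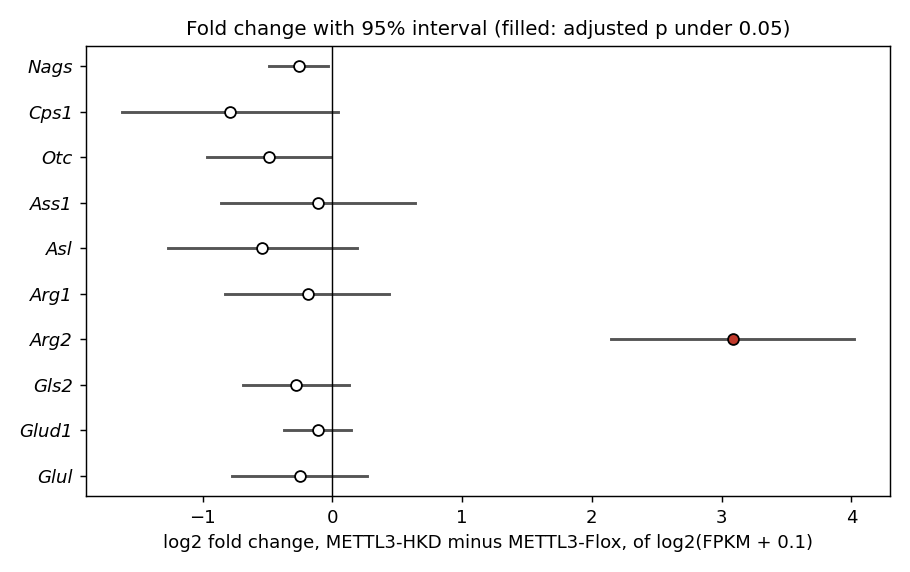
Log2 fold change (x axis) of each member (y axis), METTL3-HKD minus METTL3-Flox on log2(FPKM + 0.1), with its 95% interval. The filled point is the member past an adjusted p of 0.05. Arg2 stands at 3.09, and the other 9 lie between -0.79 and -0.11.

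Of the enzymes that release ammonia, Gls2 had the same lowest pair. Gls2 had 27.4, 30.9, 51.9 and 39.2 FPKM in HKD1 to HKD4 and 40.3, 45.1, 44.6 and 46.3 FPKM in Flox1 to Flox4. HKD1 and HKD2 were the lowest and HKD3 the highest of all livers, whereas the METTL3-Flox livers lay close together. For Gls2 the log2 fold change was -0.28 ± 0.182 (SE; 95% interval -0.69 to 0.13, limma adjusted p = 0.321).

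Glud1, which interconverts glutamate with ammonia and 2-oxoglutarate, was the steadiest member across the METTL3-HKD livers. Its FPKM were 227, 258, 224 and 246 in HKD1 to HKD4 and 287, 222, 264 and 263 in Flox1 to Flox4. The groups overlapped, and the interval of the log2 fold change, from -0.37 to 0.14, leaves room for a modest change in either direction (-0.11 ± 0.112, SE, limma adjusted p = 0.529, with 0.10 under scaling to the reads on genes and 0.16 under TPM). A processed copy, Glud-ps, was listed at a mean of 5.76 FPKM, so a small part of the reads may be split between them.

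Glul, the pericentral enzyme that fixes ammonia as glutamine, had 133, 148, 181 and 202 FPKM in HKD1 to HKD4 and 243, 207, 123 and 233 FPKM in Flox1 to Flox4. Flox3 was the lowest of the 8 livers and the other METTL3-Flox livers were the highest. For Glul the log2 fold change was -0.25 ± 0.230 (SE; 95% interval -0.77 to 0.27, limma adjusted p = 0.492), without Flox3 it was -0.47, and under TPM it was 0.02.

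The members differed widely in level, and the order was much the same in both groups. In METTL3-Flox livers it ran Arg1, Cps1, Ass1, Glud1, Glul, Asl, Otc, Gls2, Nags and Arg2, with means from 723 to 0.221 FPKM. The ranges of neighbours overlapped among the first 5, and each of the later neighbours lay apart. In METTL3-HKD livers Ass1 stood above Cps1 (means 314 and 275 FPKM), with overlapping ranges and Ass1 above in 3 of 4 livers. Arg1 led its follower in 4 of 4 livers of each group. Arg2 remained last in METTL3-HKD livers, below Nags at 23.7 ± 2.38 FPKM.

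The METTL3-HKD livers differed among themselves in the cycle. HKD1 and HKD2 were the lowest pair of the 8 livers in 7 of 10 members, among them all 6 genes of the cycle, and in 12.8% of all genes tested. This order was noticed after the values were seen, and the members share it within the same libraries, so it is given as a description. The standard deviation of log2 FPKM among METTL3-HKD livers was 0.77 for Ass1, 0.74 for Cps1, 0.73 for Asl and 0.60 for Arg1, whereas the METTL3-Flox values were 0.17, 0.48, 0.25 and 0.23. Over the 10694 genes of at least 1 FPKM the median was 0.184 in METTL3-HKD and 0.198 in METTL3-Flox livers. Nags and Glud1 were at 0.15 and 0.09 in METTL3-HKD livers, below that median.

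Summed over the 6 cycle genes, the level was 988, 807, 1890 and 1866 FPKM in HKD1 to HKD4 and 1658, 1652, 1474 and 1842 FPKM in Flox1 to Flox4. Summed hepatocyte markers, led by secreted plasma proteins, were also lower in HKD1 and HKD2 than in HKD3 and HKD4, at 34633, 35346, 46322 and 49109 FPKM, with 41733 to 54038 in METTL3-Flox livers. Of these 12 markers 1, Hnf4a, fell by limma, a call lost in 7 of 19 alternatives, among them scaling to the reads on genes, TPM and the data without HKD2, Flox3 or Flox4, and the fold changes ran from -0.68 for Tat to 0.22 for Cyp3a11. The cycle genes came to 2.85, 2.28, 4.08 and 3.80% of that sum in HKD1 to HKD4 and to 3.07, 3.76, 3.40 and 4.41% in Flox1 to Flox4, so the lower level of HKD1 and HKD2 was present relative to the hepatocyte markers as well. In these bulk samples, fewer hepatocytes and less RNA per hepatocyte cannot be told apart.

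**Figure D3:**
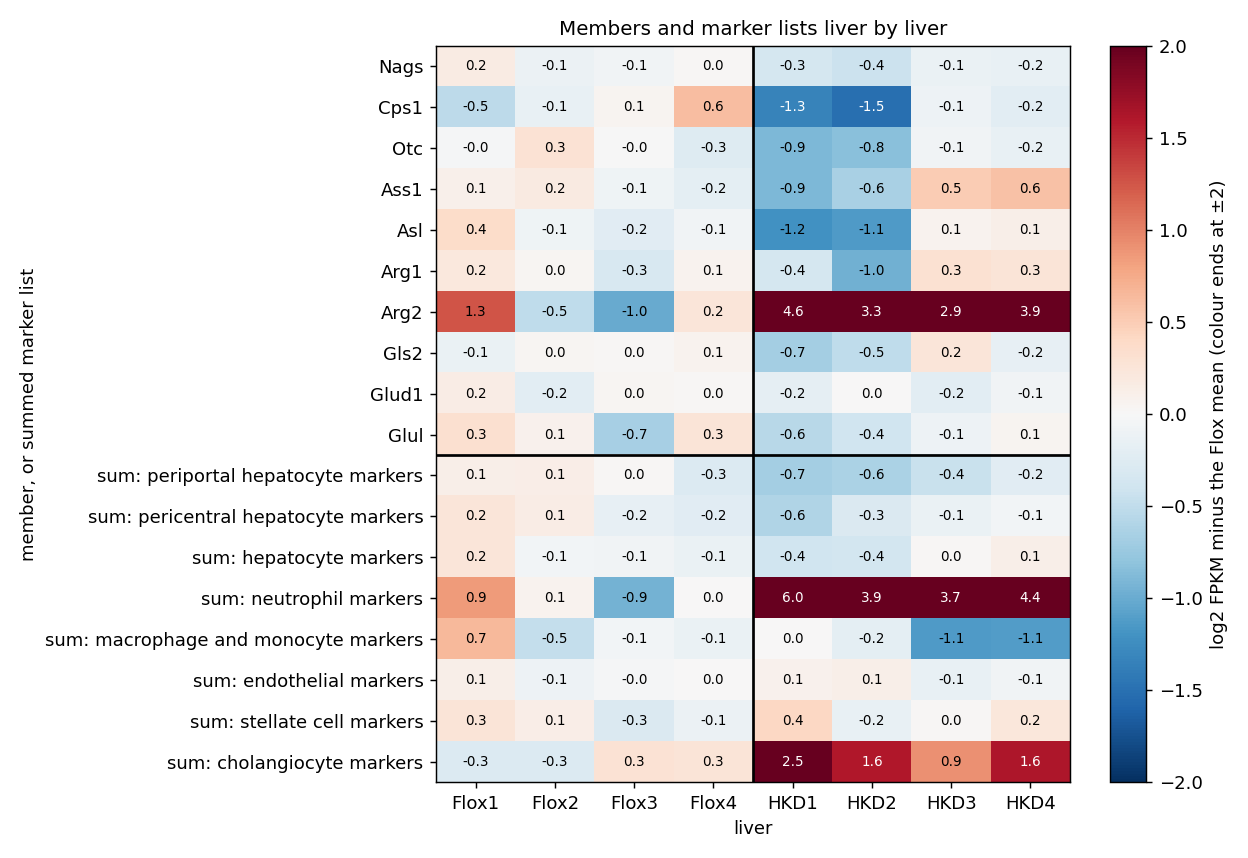
Log2 FPKM of each member, and of the summed FPKM of 8 marker lists (y axis), in each liver (x axis) minus the mean of the 4 METTL3-Flox livers. Numbers give the difference and colours end at 2 in size. The cycle genes are below the METTL3-Flox mean in HKD1 and HKD2, and Arg2 and the neutrophil and cholangiocyte markers are above it in all METTL3-HKD livers.

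Among markers of other cells, most neutrophil and cholangiocyte markers rose in METTL3-HKD livers as Arg2 did. Most macrophage and monocyte, endothelial and stellate cell markers did not. Of 10 neutrophil markers tested, 8 rose and 0 fell by limma, the largest being Retnlg (log2 fold change 4.79, adjusted p = 0.00836) and the smallest Camp (0.03, adjusted p = 0.981), and none of the list was at 0 in every liver. Their sum was 1640, 384, 334 and 549 FPKM in HKD1 to HKD4 and 13.2 to 45.8 FPKM in METTL3-Flox livers. HKD1 was the highest and HKD3 the lowest METTL3-HKD liver, as for Arg2. The same held for the summed cholangiocyte markers (369, 192, 119 and 194 FPKM in HKD1 to HKD4). It also held for the summed macrophage and monocyte markers (252, 218, 114 and 116 FPKM), but not for the endothelial or stellate cell sums. Of 13 macrophage and monocyte markers, 2 rose and 5 fell (from -1.37 for Cd5l to 4.19 for Chil3), but 1 fell under scaling to the reads on genes, 0 under TPM, and 1 without HKD3, HKD4, Flox3 or Flox4, with sums of 114 to 252 against 181 to 394 FPKM. Over all genes, lower calls also went from 1104 as deposited to 374 under scaling to the reads on genes and 233 under TPM. Of 5 cholangiocyte markers, 4 rose (from 0.77 for Epcam, which did not pass, to 1.68 for Spp1) and 2 without HKD1, HKD2, Flox2, Flox3 or Flox4, with sums of 119 to 369 against 52.5 to 77.6 FPKM. Of 6 endothelial markers 0 passed (from -0.37 for Kdr to 0.39 for Pecam1), and of 6 stellate cell markers 1, Lrat, fell (from -0.88 to 0.82 for Col1a1), with an adjusted p of 0.0555 under scaling to the reads on genes and 0.0847 under TPM, and no call without HKD1, HKD2, Flox2, Flox3 or Flox4. The part of any of these cells in the rise of Arg2 was not tested.

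The genes whose pattern was most like that of Arg2 over the 8 livers, among 10693 genes searched, were Cxcr2 (Pearson r = 0.994), Ctps (0.992), Pde12 (0.992), Asprv1 (0.991) and Sdccag8 (0.990). Cxcr2, a chemokine receptor of neutrophils, is also among the neutrophil markers above. For Cps1 they were Pigo (0.976), Ganab (0.967), Zfp91 (0.967), Selenbp1 (0.964) and Gstm4 (0.960), and the nearest member was Gls2 at place 135 (0.874). For Glul they were Dap3 (0.979), Axin2 (0.942), Rabepk (0.940), Samm50 (0.924) and Apoc3 (0.917). Axin2 is a target of Wnt signalling, which is known to maintain Glul around the central vein. The search covered genes averaging at least 1 FPKM over both groups. Cxcr2 and Asprv1 were below 1 FPKM in every METTL3-Flox liver and entered through their METTL3-HKD values. Each r spans both groups, so any gene that rose in METTL3-HKD livers tends to correlate with Arg2. All these correlations share the same 8 libraries and their scaling and are given without a test.

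Ratios for 5 pairs of members were taken within each liver, which removes the scaling between libraries. Arg2 made up 0.799, 0.504, 0.158 and 0.328% of the FPKM of both arginases in HKD1 to HKD4 and 0.0534, 0.0176, 0.0160 and 0.0290% in Flox1 to Flox4. Arg1 thus supplied nearly all arginase transcript in every liver of both groups. The log2 ratio of Arg2 to Arg1 was higher by 3.89 in METTL3-HKD livers, with no overlap (exact permutation p = 0.0286, adjusted p = 0.0714 over the 5 ratios).

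The log2 ratio of Ass1 to Asl, the neighbouring enzymes that make arginine, was 2.12, 2.30, 2.25 and 2.27 in HKD1 to HKD4 and 1.54, 2.06, 1.95 and 1.68 in Flox1 to Flox4. All METTL3-HKD livers were above all METTL3-Flox livers, by 0.43 in the mean (exact permutation p = 0.0286, adjusted p = 0.0714). This held in HKD1 and HKD2, where both genes were low, and in HKD3 and HKD4, where both were not. The other ratios overlapped: Arg1 to Cps1 differed by 0.60 (exact permutation p = 0.1429, adjusted 0.2381), Nags to Cps1 by 0.53 (p = 0.2000, adjusted 0.2500, exact permutation) and Glul to Gls2 by 0.03 (p = 0.8286, adjusted 0.8286, exact permutation). With 4 against 4 livers and 5 ratios, an adjusted p under 0.05 would have needed more than 2 ratios at the smallest p.

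**Figure D4:**
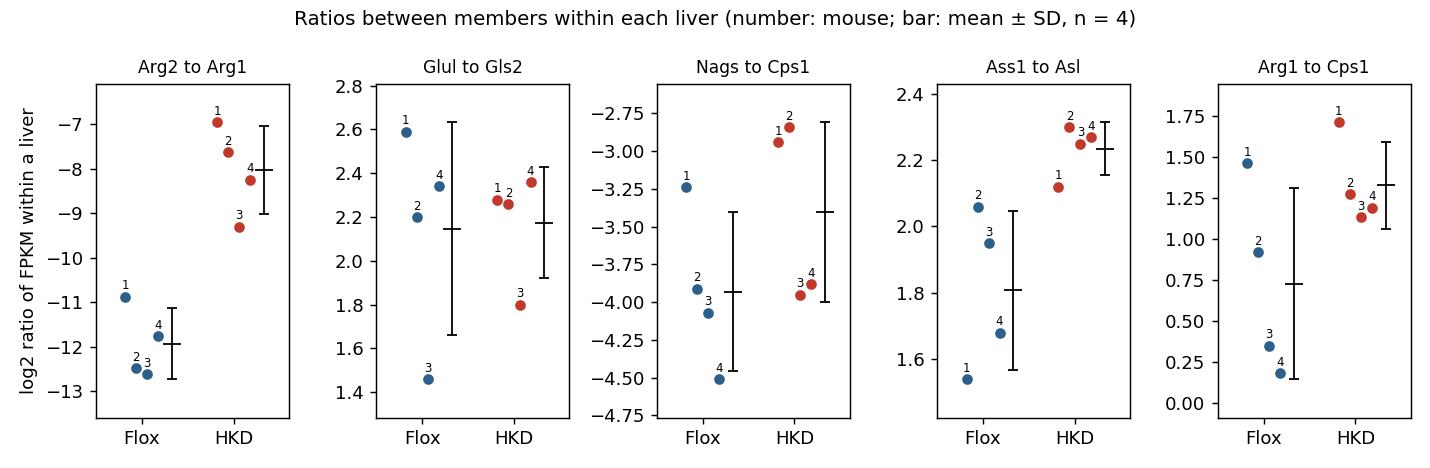
Log2 ratio of FPKM within a liver (y axis) for 5 pairs of members, in METTL3-Flox livers (blue) and METTL3-HKD livers (red). Points are livers with their mouse number and bars are the mean ± SD. The groups are apart for Arg2 to Arg1 and Ass1 to Asl and overlap for the other 3.

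The members' coding sequences were also searched for GGACT, the commonest letters around an m6A site. Arg2 and Ass1 held 0, Glud1, Nags and Otc 1 each, Arg1 2, Glul 3, Asl and Gls2 4 each, and Cps1 7. Per kilobase of coding sequence this came to 2.87 for Asl, 2.68 for Glul and 1.56 for Cps1, with a median of 1.087 over 12783 genes, of which 77.2% held at least 1. Arg2, the member that rose, thus had no such letters in its coding sequence. Methylation was not measured in these libraries, other parts of the transcripts were not counted, and a match is not a site.

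Carriers and cofactors bring substrates to the cycle or move its intermediates across membranes. Of 18 carriers and cofactors tested, 1 rose and 2 fell by limma. Slc7a1, the arginine and lysine importer CAT-1, rose from 0.146 ± 0.0676 to 0.642 ± 0.237 FPKM (log2 fold change 1.57, adjusted p = 0.0144). Slc38a4, a hepatocyte amino acid importer, fell by 0.79 on the log2 scale (adjusted p = 0.025), and Sirt3, a mitochondrial deacetylase, had a log2 fold change of -0.64 (adjusted p = 0.0263). Neither of the last pair passed when the data were scaled to the reads on genes, with adjusted p of 0.0614 and 0.0876, or without HKD2, Flox2, Flox3 or Flox4, and Slc38a4 also did not pass without HKD1.

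The next list holds enzymes that use or make arginine, ornithine or glutamate outside the cycle, and also the carrier Slc7a11. Of its 29 genes tested, 7 rose and 1 fell by limma. Odc1, which turns ornithine into the polyamine putrescine, rose from 24.6 ± 5.68 to 63.4 ± 8.04 FPKM (log2 fold change 1.38, adjusted p = 0.00325). Sat1, which acetylates polyamines, rose from 21.4 ± 2.99 to 47.4 ± 9.21 FPKM (1.13, adjusted p = 0.00529). Slc7a11, the cystine and glutamate exchanger, stood at 0.439 to 2.20 FPKM in METTL3-HKD livers and had 0 to 12 reads in each METTL3-Flox liver (log2 fold change 3.30, adjusted p = 0.00412). Its METTL3-Flox mean was 0.0167 FPKM, so it passed the filter on low values only through its METTL3-HKD values. The size of its fold change depends on the pseudocount of 0.1 FPKM, and the ratio of the means was 72.2. Nos2, Ddah2 and Srm were among the others that rose. Pycrl, an enzyme of proline synthesis, fell by 0.59 (adjusted p = 0.0111), with an adjusted p of 0.0679 under TPM.

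Of 46 genes of amino acid breakdown, the pathway that supplies nitrogen to the cycle, 0 rose and 13 fell by limma, with 7 lower under scaling to the reads on genes and 5 under TPM. Over all genes tested, 1104 (6.63%) were lower as deposited. That number was 374 under scaling to the reads on genes and 233 under TPM. Csad, of taurine synthesis from cysteine, fell by 1.68 (adjusted p = 0.0109). Kynu, of tryptophan breakdown, fell by 0.75 (adjusted p = 0.00679), and Aspg, an asparaginase, by 0.74 (adjusted p = 0.0111, and 0.0838 under TPM). HKD1 and HKD2 were the lowest pair in 33 of these 46 genes, against 7 of the 10 members.

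Of 20 known regulators of urea cycle genes, 1 rose and 5 fell by limma. Cebpa, a C/EBP factor, fell from 181 ± 13.5 to 97.7 ± 22.1 FPKM (log2 fold change -0.91, adjusted p = 0.0115). Gcgr, the glucagon receptor, stood at -0.76 (adjusted p = 0.00389) and Klf15, a regulator of amino acid breakdown, at -1.41 (adjusted p = 0.00679), and Hnf4a, with the losses given above, and Nr1h4, whose call was lost without HKD2, Flox3 or Flox4, fell as well. Cebpa, Gcgr and Klf15 also passed under scaling to the reads on genes and under TPM. Trp53 rose by 0.63 (adjusted p = 0.0245) and passed in 14 of 19 alternatives, but not with the replicate block, scaling to hepatocyte markers, or without HKD1, HKD2 or Flox4. None of the 6 cycle genes passed beside them.

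Zonation markers, which mark hepatocytes near the portal or the central vein, mostly did not pass. Of 14 periportal markers 3 fell and of 17 pericentral markers 2 fell, and 0 of either rose. The pericentral count was 0 without HKD1 or Flox2 and with the replicate block and 1 under scaling to the reads on genes and TPM, and 1 pericentral marker rose without Flox1 or Flox4. The highest and lowest log2 fold changes were 0.37 for G6pc and -1.30 for Etnppl among the periportal markers (neither passed, adjusted p = 0.468 and 0.0703), and 1.01 for Cyp2a5 and -0.90 for Ldhd among the pericentral ones (adjusted p = 0.0976 and 0.0219). The periportal members and the pericentral Glul both had fold changes below 0 on the deposited scaling, with none past the test.

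**Figure D5:**
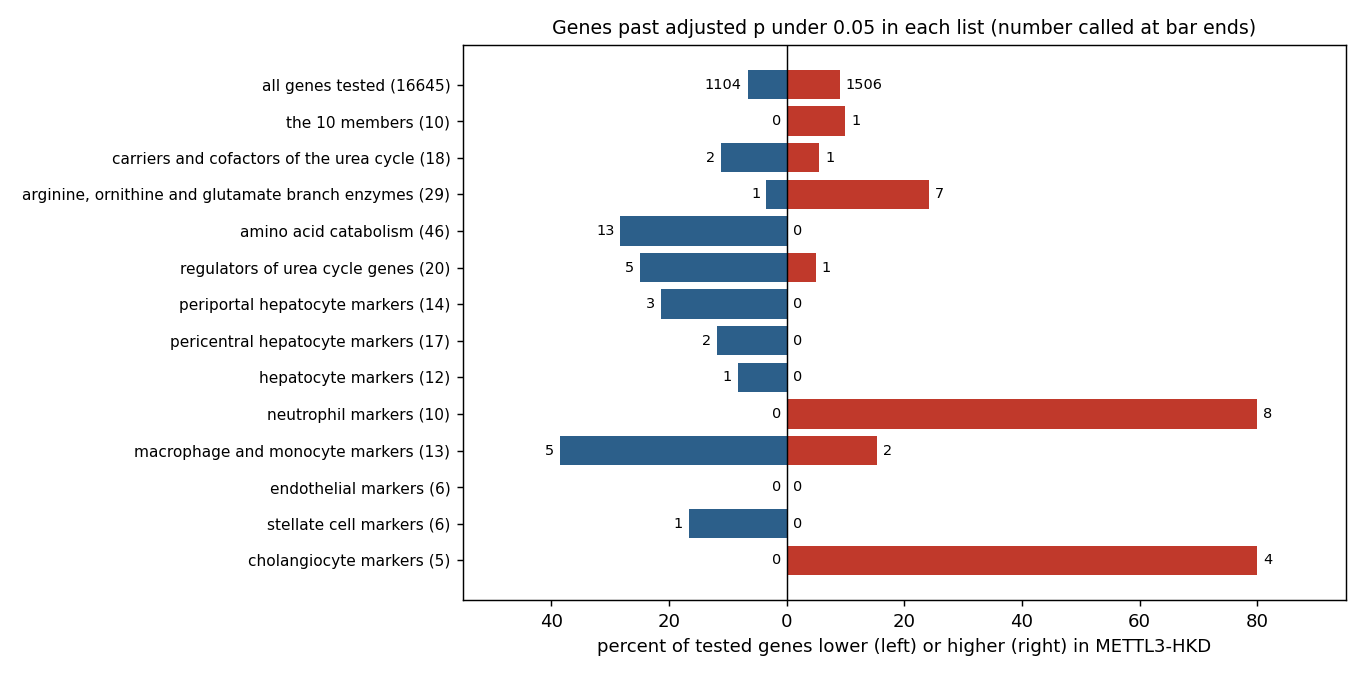
Percent of the genes tested in each list (y axis, number tested in brackets) that were lower (blue, left) or higher (red, right) in METTL3-HKD livers at an adjusted p under 0.05 (x axis). Bar ends give the number of genes. The members have 1 higher and 0 lower, amino acid catabolism has 13 lower, and neutrophil markers have 8 higher.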

How the data were processed

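RNA of 8 livers was sequenced after preparation with a SMARTer mRNA-Seq kit, and reads were handled on GRCm38 (mm10) according to the submitters' processing notes. The aligner, annotation, counting and strand setting are not given in the sources used here. The authors deposited FPKM for 54532 genes with the gene length used. Multiplied by length and an effective library size, 100.0% of non-zero values gave whole reads (tolerance 0.001). These rebuilt reads served for depth and for the voom alternative.

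Groups follow the sample titles. Genes averaging 0.1 FPKM or more were tested on log2(FPKM + 0.1) with limma 3.58.1 (trend) in R 4.3.3, and the script was tested on simulated data. Single values were compared by exact permutation over 70 arrangements. The interval of the pooled Arg2 read ratio was computed with scipy 1.17.1. The limma p-values set the difference between groups against the spread among these mice, with that spread moderated over all genes tested. The exact permutation p-values place the observed difference among all arrangements of these mice. The members and all gene lists were chosen with earlier results of these data known. Named genes are the 10 members, Mettl3, up to 3 genes of smallest p in each direction per list, the extremes of each marker list, and the 5 genes most correlated with Cps1, Arg2 and Glul. Nos2, Ddah2, Srm, Hnf4a, Nr1h4 and the genes sharing exons or copies were named after their values were seen. Alternatives changed the pseudocount, the minimum, the scaling, the model, the replicate block and the livers included. Positions and sequences come from GENCODE M21 on GRCm38, in which 98.33% of 54409 genes had the deposited coordinates, and promoters from RefSeq. No 2 livers of a group agreed within sampling noise.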

Additional observations from a re-analysis of the deposited data

How the results depend on the processing

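Across 19 alternatives, 1 member was higher and 0 lower at an adjusted p under 0.05 each time. Arg2 passed in all 19, with log2 fold changes from 1.51 (pseudocount of 1 FPKM) to 3.55 (voom) and limma adjusted p from 0.00185 to 0.0158. With 1 liver left out its log2 fold changes ran from 2.79 to 3.38. In the alternative with a minimum mean of 1 FPKM, Arg2 entered only through its METTL3-HKD values. Its METTL3-Flox mean was 0.221 FPKM. Some members that did not pass changed sign. Under scaling to the reads on genes, Ass1 was at 0.10, Arg1 at 0.03 and Glud1 at 0.10. Under TPM, Nags was at 0.01, Ass1 at 0.16, Arg1 at 0.08, Glud1 at 0.16 and Glul at 0.02. Array weights put Ass1 at 0.07. Scaling to hepatocyte markers, chosen after seeing the data, put Ass1 and Glud1 at 0.04. The scalings to reads on genes, TPM and hepatocyte markers moved the median of all genes from -0.003 to 0.20, 0.24 and 0.14, and 9 of 10 members stayed below that median. With array weights or without HKD1 the count below the median was 8, and without HKD2 it was 7. With 1 liver left out, Ass1 ran from -0.35 to 0.15 (0.15 without HKD1, 0.07 without HKD2), Arg1 from -0.35 to 0.07 (0.07 without HKD2) and the log2 ratio of Glul to Gls2 from -0.20 to 0.18. The ratio of Arg2 to Arg1 ran from 3.53 to 4.32 and, without Flox1, reached 4.24 with an adjusted exact permutation p of 0.0476, as did Ass1 to Asl and Arg1 to Cps1. The adjusted p of Arg2 to Arg1 was 0.143 without any one METTL3-HKD liver and 0.125 with the replicate block.

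The labels do not say whether mouse numbers pair the livers. Deviations of same-numbered livers correlated at 0.14, -0.16, -0.04 and -0.10, and only HKD1 correlated best with its own number. With 4 livers in each group, such correlations cannot settle whether the livers were paired. With the replicate block, Arg2 stood at 3.09 (limma adjusted p = 0.00185) and no call of a member changed, whereas calls over all genes went from 1506 higher and 1104 lower to 971 and 645. The cause was not tested. Over all genes the split of calls was 57.7% higher as deposited, 86.1% with scaling to the reads on genes, 89.8% under TPM and 78.9% with scaling to hepatocyte markers. Leaving out 1 liver gave 747 to 1659 higher and 355 to 1148 lower genes. A pseudocount of 1 FPKM left 317 and 88 genes past the fold limit, against 782 and 253. The count of lower amino acid catabolism genes ran from 6 (without Flox3) to 19 (without HKD3), and was 7 without HKD1 or HKD2. Higher genes of the arginine, ornithine and glutamate list ran from 4 (without HKD1 or HKD4) to 9 and lower carriers from 0 to 3 with 1 liver left out. Depth limits Arg2, which had 2 to 9 reads in METTL3-Flox livers.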
